A study of Mus musculus with 8 samples.

Results

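The 10 genes described here are Lin28a, Lin28b, Trim71, Hmga2, Igf2bp1, Igf2bp2, Igf2bp3, Arid3a, Arid3b and Plagl2, which belong to the developmental timing pathway of the RNA-binding protein Lin28 and the microRNA let-7. They were taken by name, not by their values, out of the 55421 gene identifiers of the expression table, and all 10 were among the 16699 genes that were abundant enough to be tested. Poly-A RNA of mouse embryos was sequenced in 8 libraries, in 4 groups of 2. The embryos were collected at E9.25 with 9 to 11 somites and were either Gcnf-/-, homozygous for a mutant allele of the orphan nuclear receptor Gcnf that the gene Nr6a1 encodes, or wild type. Each was divided into an anterior piece, reaching back to and including pharyngeal arch 1, and a posterior piece, from pharyngeal arch 2 backwards.

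The groups were Gcnf-/- anterior (libraries 159 and 163), wild-type anterior (153 and 156), Gcnf-/- posterior (159 and 163) and wild-type posterior (153 and 156). The labels give neither the deleted part of Gcnf nor the mouse strain, nor do they tie libraries to embryos, so each test weighs a difference against a spread that may be technical. The dissection was visible in the data: the summed level of 8 posterior marker genes, Hox and tail bud genes among them, was 492 to 526 TPM in Gcnf-/- posterior pieces and 10.3 to 12.2 TPM in Gcnf-/- anterior pieces, and 665 to 871 TPM in wild-type posterior pieces and 8.05 to 9.36 TPM in wild-type anterior pieces. TPM (transcript abundance scaled to a fixed total) is a level per gene length whose column sum is 1000000, so it is relative to all other RNA of that library. Nr6a1 itself did not separate the genotypes, with 240 and 202 TPM in Gcnf-/- anterior pieces against 194 and 205 TPM in wild-type ones, and 158 and 116 TPM in Gcnf-/- posterior pieces against 157 and 165 TPM in wild-type ones. Without the deleted part being known, that level does not check the labels. Xist was present in the 159 libraries and the Y-linked gene Ddx3y in all others, so the sexes were not balanced between the genotypes. Within each Gcnf-/- group sex cannot be told apart from library. The 10 genes are all autosomal, but an effect of sex on them was not tested.

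Lin28a and Lin28b bind the precursors of let-7 and block their maturation, and mature let-7 in turn represses messenger RNAs that carry matches to its seed, those of both Lin28 genes included. The circuit was first described in the nematode Caenorhabditis elegans, where lin-28, let-7 and lin-41 (the counterpart of mouse Trim71) set the order of larval cell fates. In mouse embryos the Lin28 genes and many let-7 targets are abundant in early, proliferating tissue and decline as tissues mature. Gcnf is known as a repressor of pluripotency genes after gastrulation.

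The let-7 family is united by its seed, and the seed match is what the 10 genes have in common. All 9 distinct 5p mature names of the family found in the RefSeq microRNA table (GRCm38.p6), from 11 of 12 loci, carried the seed GAGGUAG at bases 2 to 8. A few members of the family are shown, with the seed in capitals, to make the shared and the variable bases visible.
mmu-let-7a-5p: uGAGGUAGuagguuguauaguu
mmu-let-7g-5p: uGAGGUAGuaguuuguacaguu
mmu-miR-98-5p: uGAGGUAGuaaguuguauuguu

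The DNA letters that pair with this seed, CTACCTC, were searched after the stop codon, in the longest annotated 3′ untranslated region of each gene (GENCODE release M21, GRCm38, transcribed strand only). All 10 genes held at least 1 match, whereas 8.7% of 21699 genes with such a region did, and 19.99% of the 5379 genes whose region had 2000 bases or more. Lin28b, Trim71, Hmga2 and Igf2bp1 held 4 matches each, Lin28a and Arid3a 2 each, and Igf2bp2, Igf2bp3, Arid3b and Plagl2 1 each. Because the genes were listed as let-7 targets, these counts describe the list and are not a finding about it. Nr6a1, the mutated gene, held 8. The sites below are the ones nearest the stop codon in the 4 genes that passed the genotype test, with the other Lin28a site. Each line gives the bases before the match, the match in capitals and 1 base after it.
Lin28a, chr4:134005189-134005218, minus strand: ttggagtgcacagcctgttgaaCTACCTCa
Lin28a, chr4:134004551-134004580, minus strand: atgctttgagatcgccacaaacCTACCTCa
Lin28b, chr10:45381022-45381051, minus strand: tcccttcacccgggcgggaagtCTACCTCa
Trim71, chr9:114512472-114512501, minus strand: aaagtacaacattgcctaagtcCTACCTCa
Hmga2, chr10:120364224-120364253, minus strand: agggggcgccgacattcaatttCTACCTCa
In all 5 the match is followed by an A, the base that strengthens let-7 targeting in known sites. Of all matches, 2 of 2 in Lin28a and 4 of 4 in Trim71 were followed by an A, but 1 of 4 in Lin28b and 1 of 4 in Hmga2. A match is a stretch of letters, not a measured binding site, and mature let-7 was not measured in these poly-A libraries: of 12 let-7 loci, 11 were at 0 TPM in every library and Mir98 was at 0.99 TPM in a single one.

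**Figure D1:**
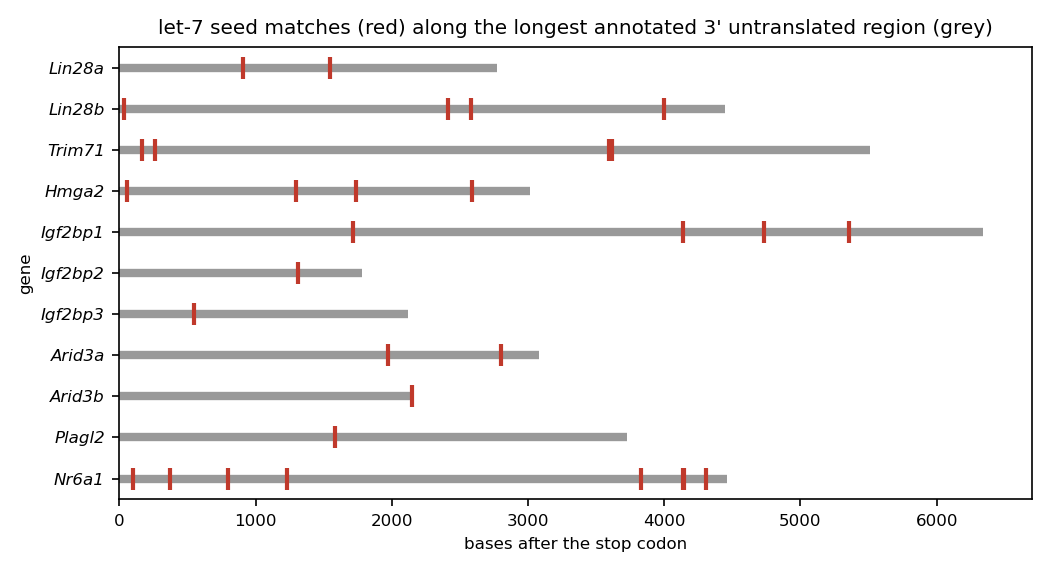
Matches to the let-7 seed (red ticks) along the longest annotated 3′ untranslated region (grey bars) of the 10 genes and Nr6a1, in bases after the stop codon. The regions of Lin28b, Trim71, Hmga2 and Igf2bp1 carry 4 matches each and that of Nr6a1 carries 8.

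The genotype comparisons asked which genes of the pathway differed between Gcnf-/- and wild-type tissue of the same region. Lin28a and Lin28b fell in Gcnf-/- embryos in both regions, Hmga2 fell in the anterior pieces and Trim71 in the posterior pieces. None of the 10 rose. In the anterior pieces 3 of 10 genes passed the test, all lower, where 10.2% of all tested genes passed as lower and 23.6% passed in either direction. In the posterior pieces 3 of 10 passed, all lower, where 2.93% of all tested genes passed as lower and 11.5% in either direction. The test was limma on log2(TPM + 1) with adjustment over all 16699 genes and a threshold of 0.05, and differences below are on that log2 scale with their standard errors. The median difference over the 10 genes was -0.31 in anterior pieces (0.02 over all tested genes) and -0.32 in posterior pieces (0.05 over all tested genes). The posterior median was -0.16 without Gcnf-/- posterior library 163 and -0.49 without library 159. The difference was below 0 for 10 of 10 genes in anterior pieces (7 of 10 under quantile normalization) and for 9 of 10 in posterior pieces (10 of 10 under median-of-ratios scaling and under quantile normalization), although most of these differences did not pass. The libraries of the 2 genotypes did not overlap, with Gcnf-/- lower, for 7 of 10 genes in each region, where 32.3% of all tested genes were separated that way in anterior and 19.8% in posterior pieces.

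**Figure D2:**
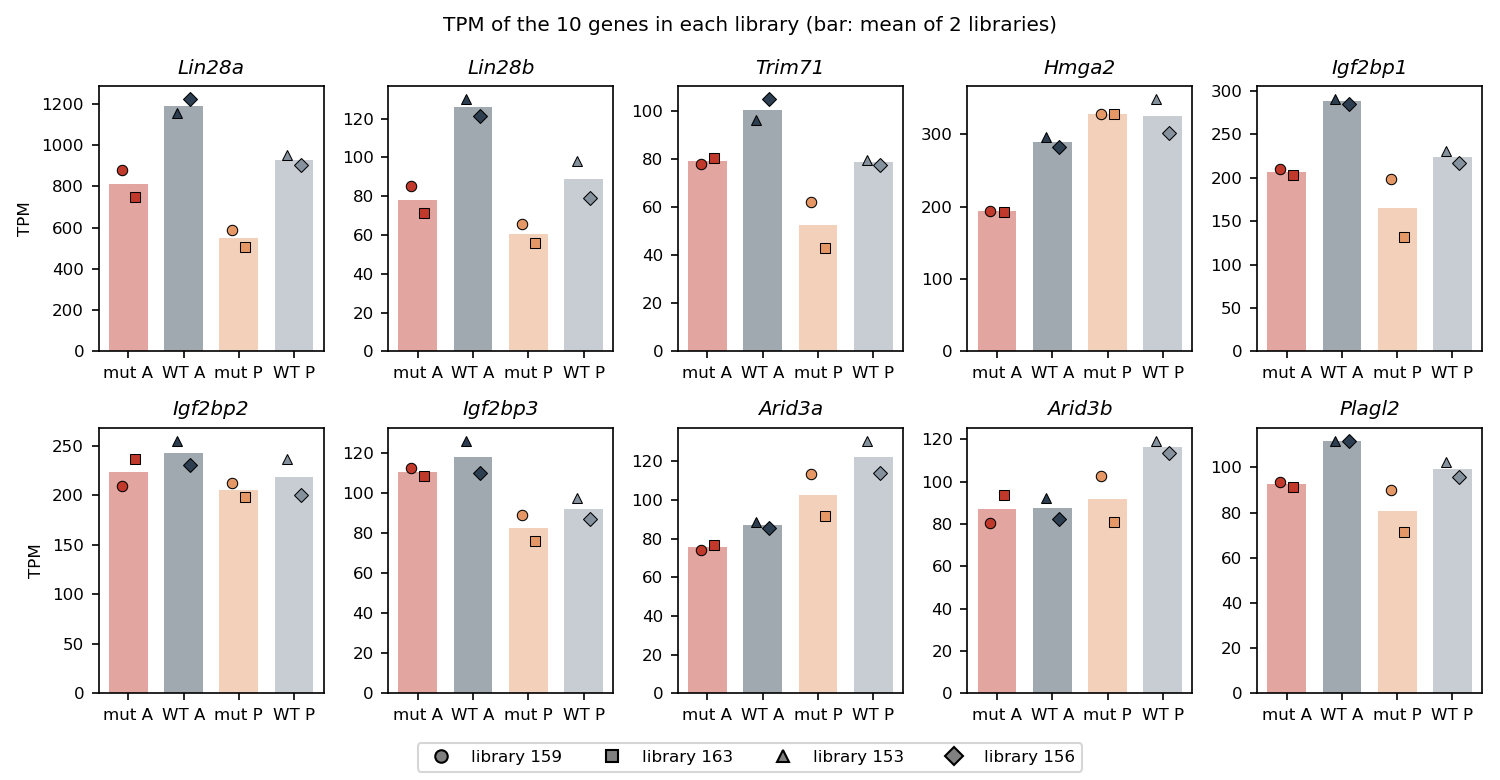
TPM of the 10 genes in each library (points; shapes mark the library number) with the mean of 2 libraries as bars, for Gcnf-/- anterior (mut A), wild-type anterior (WT A), Gcnf-/- posterior (mut P) and wild-type posterior (WT P) pieces. Each panel has its own axis starting at 0. Lin28a and Lin28b lie lower in both mutant groups than in the wild-type group of the same region, and Hmga2 lies lower in the Gcnf-/- anterior pieces than in every other group.

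Lin28a, the Lin28 protein of the early embryo that recruits a uridylating enzyme to let-7 precursors, was the most abundant of the 10 genes in every group. In anterior pieces it stood at 881 and 747 TPM in Gcnf-/- libraries 159 and 163, against 1154 and 1226 TPM in wild-type libraries 153 and 156. In posterior pieces it stood at 590 and 509 TPM in Gcnf-/- libraries and at 952 and 905 TPM in wild-type libraries. Both mutant libraries were below both wild-type libraries in each region. The group means were 814 ± 94.7 and 1190 ± 50.6 TPM (SD, n = 2 each) in Gcnf-/- and wild-type anterior pieces, and 550 ± 57.6 and 929 ± 33.1 TPM in Gcnf-/- and wild-type posterior pieces. The mutant mean was thus 0.684 times the wild-type mean in front and 0.592 times behind. The differences were -0.55 ± 0.12 (adjusted p = 0.011) in anterior and -0.76 ± 0.12 (adjusted p = 0.0057) in posterior pieces. The anterior call was lost without Gcnf-/- anterior library 163 (adjusted p = 0.072), wild-type anterior library 153 (0.056) or wild-type anterior library 156 (0.084), and the posterior call without wild-type posterior library 153 (0.070). Both calls were lost without number 153 in both regions (0.12 in front, 0.15 behind) or number 156 in both regions (0.16 and 0.11). With no filter on low values the anterior adjusted p was 0.051. The difference stayed between -0.67 and -0.43 in front and between -0.87 and -0.65 behind.

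Lin28b, the paralogue that also binds let-7 precursors, was about an order of magnitude less abundant. Its anterior levels were 85.1 and 71.5 TPM in Gcnf-/- libraries, against 130 and 121 TPM in wild-type libraries. Its posterior levels were 65.5 and 56.0 TPM in Gcnf-/- libraries, against 98.3 and 79.0 TPM in wild-type libraries. Again the genotypes did not overlap in either region. The anterior difference was -0.68 ± 0.14 (adjusted p = 0.0091) (0.622 times the wild-type mean) and the posterior difference was -0.53 ± 0.14 (adjusted p = 0.042) (0.685 times). The anterior call was lost without Gcnf-/- library 163 (adjusted p = 0.064) or wild-type library 153 (0.066) of that region. The posterior call was lost without Gcnf-/- posterior library 163 (0.14), wild-type anterior libraries 153 or 156 (0.061 each), wild-type posterior library 153 (0.23) or wild-type posterior library 156 (0.058), and also with no filter on low values (0.12), with library weights (0.073) and in a fit of the 2 posterior groups alone (0.11). Without number 153 in both regions neither call passed (0.097 in front, 0.36 behind), nor without number 156 (0.065 and 0.12), and without number 163 in both regions the posterior one did not (0.10).

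Since both paralogues were lower, their proportion hardly moved. Lin28a made up 91.2% ± 0.057 of the summed Lin28 TPM in Gcnf-/- anterior pieces and 90.4% ± 0.81 in wild-type anterior pieces, and 90.1% ± 0.046 in Gcnf-/- posterior pieces and 91.3% ± 0.94 in wild-type posterior pieces (SD, n = 2 each). Such a share within a library does not depend on how that library is scaled, but it does depend on the gene lengths that TPM divides by. The Lin28 sum was 892 ± 104 TPM in Gcnf-/- anterior and 1316 ± 44.3 TPM in wild-type anterior pieces, and 610 ± 64.3 TPM in Gcnf-/- posterior and 1017 ± 46.7 TPM in wild-type posterior pieces.

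Trim71, a ubiquitin ligase and RNA-binding protein that is the mouse counterpart of lin-41, was lower in the posterior pieces of the mutant. It stood at 62.2 and 43.1 TPM in Gcnf-/- posterior libraries 159 and 163, against 79.6 and 77.4 TPM in wild-type posterior libraries. The mutant pair was wide and lay wholly under the tight wild-type pair. The difference was -0.59 ± 0.15 (adjusted p = 0.042). In anterior pieces it stood at 77.7 and 80.4 TPM in Gcnf-/- libraries and at 96.0 and 105 TPM in wild-type libraries, also without overlap, but the difference of -0.34 ± 0.15 did not pass (adjusted p = 0.14; 0.035 in a fit of the 2 anterior groups alone, and 0.023 or 0.022 without Gcnf-/- posterior library 159 or 163). The posterior call rests on little: it held without Gcnf-/- posterior library 159 (0.0040) and was lost without any other single library, with adjusted p = 0.058 without either Gcnf-/- anterior library, 0.10 without Gcnf-/- posterior library 163, 0.057 without either wild-type anterior library, 0.20 and 0.14 without the posterior wild-type libraries 153 and 156. Without Gcnf-/- posterior library 163 the difference was -0.33, and without library 159 it was -0.85. The call was also lost with no filter on low values (0.13), with library weights (0.061) and in a fit of the 2 posterior groups alone (0.12).

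Hmga2, an architectural chromatin protein and classical let-7 target, fell in the anterior pieces of the mutant and did not pass behind. In anterior pieces it stood at 194 and 193 TPM in Gcnf-/- libraries, against 297 and 283 TPM in wild-type libraries. In posterior pieces it stood at 329 TPM in both Gcnf-/- libraries, inside the wild-type pair of 350 and 302 TPM. The genotypes were separate in front and overlapped behind. The anterior difference was -0.58 ± 0.096 (adjusted p = 0.0040) (0.669 times the wild-type mean). It passed without each of the 8 libraries in turn (highest adjusted p = 0.047, without wild-type anterior library 153), but not without number 153 (0.074) or 156 (0.051) in both regions. The posterior difference was 0.02 ± 0.096 (adjusted p = 0.94), with a 95% interval of -0.20 to 0.24, and its sign flipped to -0.047 under median-of-ratios scaling and to -0.016 under quantile normalization.

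**Figure D3:**
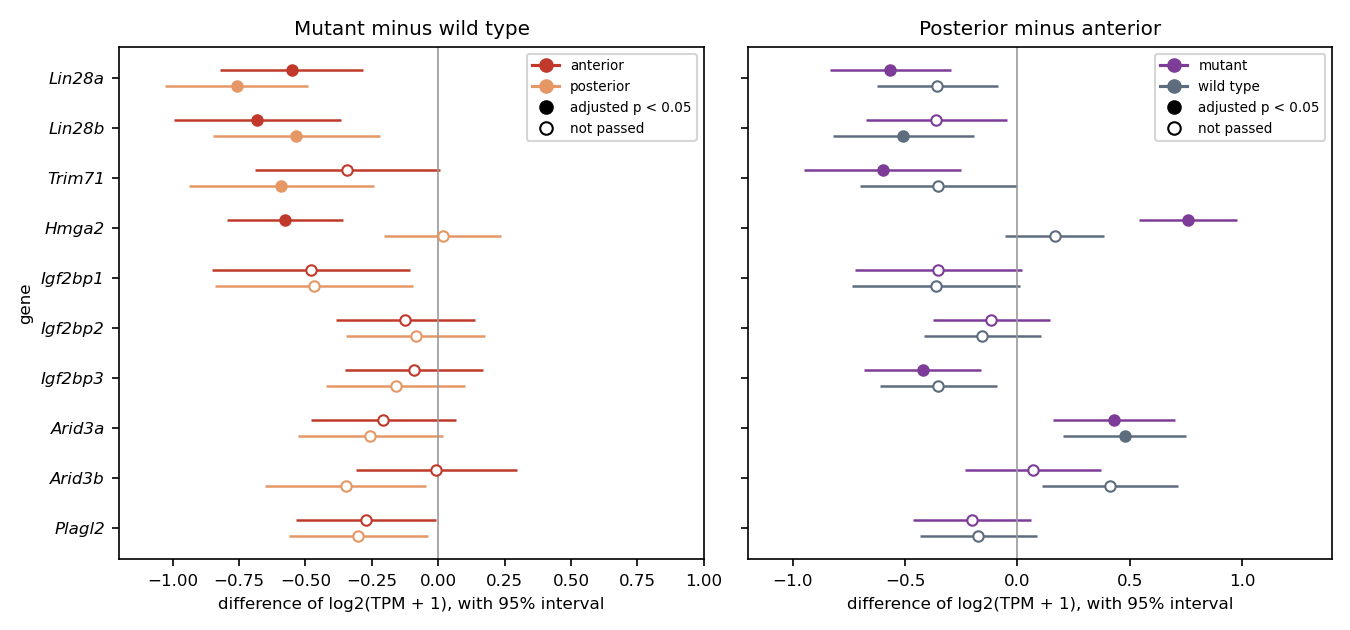
Differences of log2(TPM + 1) for the 10 genes with 95% intervals, as mutant minus wild type in each region (left) and posterior minus anterior in each genotype (right). Filled points passed an adjusted p of 0.05 over 16699 genes. In the left panel Hmga2 is the gene whose anterior (-0.58) and posterior (0.02) intervals lie furthest apart.

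Whether a genotype difference itself differed between regions was tested as the anterior minus the posterior difference. In limma 0 of 10 genes passed, 1 had an unadjusted p under 0.05, and 1.01% of all tested genes passed. That gene was Hmga2, with -0.59 ± 0.14 (95% interval -0.90 to -0.28; adjusted p = 0.097). After a correction for a trend over transcript length, an alternative chosen after seeing the data, it passed (adjusted p = 0.028), and over its other alternatives the adjusted p ran between 0.056 and 0.60. For Lin28a the difference of the genotype effects was 0.21 ± 0.17 (95% interval -0.17 to 0.59) and for Lin28b -0.15 ± 0.20 (-0.59 to 0.30), and neither passed (adjusted p = 0.67 and 0.81). The falls of the Lin28 genes were thus not shown to differ between regions, nor was the fall of Trim71 (0.25 ± 0.22, adjusted p = 0.69).

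The Igf2bp proteins bind and stabilise messenger RNAs in embryonic cells, and all 3 genes are known let-7 targets. None passed in either region. Igf2bp1 came nearest, at 210 and 203 TPM in Gcnf-/- anterior libraries against 291 and 285 TPM in wild-type ones, and at 198 and 132 TPM in Gcnf-/- posterior libraries against 231 and 217 TPM in wild-type ones. Its genotypes were separate in both regions, but the differences of -0.48 ± 0.16 (adjusted p = 0.066) and -0.47 ± 0.16 (adjusted p = 0.10) did not pass. Igf2bp1 passed in front in several alternatives: with a filter at 5 TPM (adjusted p = 0.043), with library weights (0.021), in a fit of the 2 anterior groups alone (0.013), after the length-trend correction (0.024) and without Gcnf-/- posterior library 159 or 163 (0.0042 each). It passed behind after the length-trend correction (0.048) and without Gcnf-/- posterior library 159 (0.0046), where the difference was -0.76. Igf2bp2 stood at 210 and 237 TPM in Gcnf-/- anterior libraries against 255 and 231 TPM in wild-type ones, and at 213 and 198 TPM in Gcnf-/- posterior libraries against 237 and 200 TPM in wild-type ones. Igf2bp3 stood at 113 and 109 TPM in Gcnf-/- anterior libraries against 126 and 110 TPM in wild-type ones, and at 89.1 and 76.2 TPM in Gcnf-/- posterior libraries against 97.4 and 87.2 TPM in wild-type ones. Both overlapped between genotypes in each region, with differences of -0.12 in front and -0.08 behind for Igf2bp2 (adjusted p = 0.47 and 0.68) and of -0.09 in front and -0.16 behind for Igf2bp3 (adjusted p = 0.61 and 0.41); the anterior ones turned to 0.027 and 0.025 under quantile normalization. Igf2bp3 overlaps Malsu1 on the other strand (14.65 to 23.04 TPM), and the libraries do not mark strand, so reads of the shared stretch cannot be told apart.

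As shares of the summed Igf2bp TPM, Igf2bp1 took 38.2% ± 1.7 in Gcnf-/- anterior and 44.4% ± 1.6 in wild-type anterior pieces, and 36.0% ± 5.1 in Gcnf-/- posterior and 41.9% ± 1.5 in wild-type posterior pieces (SD, n = 2 each). Igf2bp2 took 41.3% ± 2.7 in Gcnf-/- anterior and 37.4% ± 0.74 in wild-type anterior pieces, and 45.7% ± 4.4 in Gcnf-/- posterior and 40.8% ± 1.5 in wild-type posterior pieces. The order of the means thus turned between genotypes, with Igf2bp2 highest in both Gcnf-/- groups and Igf2bp1 in both wild-type groups. The order inside single libraries did not follow genotype throughout. In Gcnf-/- anterior library 159 Igf2bp1 took 39.418% and Igf2bp2 39.4157%. In wild-type posterior library 153 Igf2bp2 took 41.9% and Igf2bp1 40.9%. The turn was not tested. The libraries of Igf2bp1 and Igf2bp2 overlapped in Gcnf-/- anterior and in wild-type posterior pieces and were separate in the other 2 groups, by less than 1 TPM in Gcnf-/- posterior pieces.

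The transcription factor genes of the list did not pass between genotypes in either region. Arid3a, which encodes an AT-rich DNA-binding factor, stood at 74.1 and 76.8 TPM in Gcnf-/- anterior libraries against 88.8 and 85.7 TPM in wild-type ones, and at 113 and 91.7 TPM in Gcnf-/- posterior libraries against 131 and 114 TPM in wild-type ones. Its differences were -0.21 ± 0.12 (adjusted p = 0.25) and -0.25 ± 0.12 (adjusted p = 0.21). Plagl2, a zinc-finger factor, stood at 93.6 and 91.3 TPM in Gcnf-/- anterior libraries against 112 TPM in both wild-type ones, and at 90.02 and 71.5 TPM in Gcnf-/- posterior libraries against 102 and 95.9 TPM in wild-type ones. Its differences were -0.27 ± 0.12 (adjusted p = 0.12) and -0.30 ± 0.12 (adjusted p = 0.13). Both genes were separate between genotypes in both regions without passing the test. Plagl2 passed in front in a fit of the 2 anterior groups alone (adjusted p = 0.031) and without Gcnf-/- posterior library 159 (0.044) or 163 (0.043), and behind without library 159 (0.030). Arid3b, the paralogue of Arid3a, stood at 80.5 and 93.5 TPM in Gcnf-/- anterior libraries against 92.3 and 82.4 TPM in wild-type ones, which overlap, and at 103 and 80.8 TPM in Gcnf-/- posterior libraries against 119 and 113 TPM in wild-type ones, which do not. Its anterior difference was -0.0074 ± 0.13 (adjusted p = 0.98), with a sign that flipped to 0.067 under quantile normalization, and its posterior difference was -0.35 ± 0.13 (adjusted p = 0.13; 0.042 without Gcnf-/- posterior library 159).

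**Figure D4:**
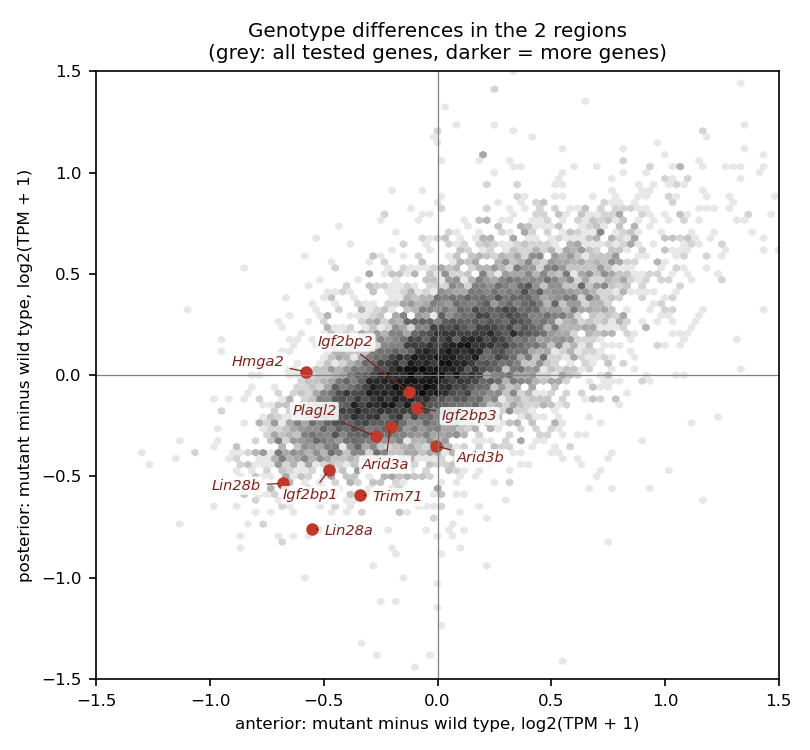
Mutant minus wild-type difference of log2(TPM + 1) in anterior (horizontal axis) and posterior pieces (vertical axis) for the 10 genes (red) over all tested genes (grey, darker where more genes lie; genes beyond 1.5 on either axis are not drawn). The 10 genes lie left of 0 in front, between -0.68 and -0.0074 (Igf2bp2, Igf2bp3 and Arid3b cross 0 under quantile normalization), and Hmga2 lies at 0.02 behind (-0.047 under median-of-ratios scaling).

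Between the pieces of one genotype, Hmga2 and Arid3a were higher behind and Lin28a, Trim71 and Igf2bp3 lower behind in Gcnf-/- embryos, and in wild-type embryos Arid3a was higher and Lin28b lower behind. In Gcnf-/- embryos 5 of 10 genes passed for posterior minus anterior (16.1% of all tested genes), 2 higher (8.01% of all tested genes) and 3 lower (8.1%), and in wild-type embryos 2 passed (14.5%), 1 higher (7.86%) and 1 lower (6.65%). The wild-type count lies near the share of all genes. Hmga2 was higher behind in Gcnf-/- embryos (0.76 ± 0.096, adjusted p = 0.00090), and this passed without each library in turn. In wild-type embryos its difference was 0.17 ± 0.096 (adjusted p = 0.29), which passed under median-of-ratios scaling (0.25, adjusted p = 0.042), quantile normalization (0.32, adjusted p = 0.026) and the length-trend correction (0.23, adjusted p = 0.037). Arid3a was higher behind in Gcnf-/- embryos (0.43 ± 0.12, adjusted p = 0.042) and in wild-type embryos (0.48 ± 0.12, adjusted p = 0.030). Arid3b did not pass in wild-type embryos (0.41 ± 0.13, adjusted p = 0.075), but did under median-of-ratios scaling (0.039), quantile normalization (0.045), library weights (0.039), the length-trend correction (0.022) and a fit of the 2 wild-type groups alone (0.031). Lin28a was lower behind in Gcnf-/- embryos (-0.56 ± 0.12, adjusted p = 0.012), and in wild-type embryos its libraries were separate but the difference of -0.36 ± 0.12 did not pass (adjusted p = 0.080). Lin28b was lower behind in wild-type embryos (-0.51 ± 0.14, adjusted p = 0.042), and in Gcnf-/- embryos its difference of -0.36 ± 0.14 did not pass (adjusted p = 0.13). Trim71 (-0.60 ± 0.15, adjusted p = 0.029) and Igf2bp3 (-0.42 ± 0.11, adjusted p = 0.038) were lower behind in Gcnf-/- embryos, and in wild-type embryos their differences of -0.35 did not pass (adjusted p = 0.17 and 0.076). With the library number as a fixed replicate block, Arid3a lost its Gcnf-/- call (adjusted p = 0.051), Lin28b gained one there (0.049) and Igf2bp3 gained one in wild-type embryos (0.049). As a random replicate block the number gave wild-type calls for Igf2bp3 (0.047) and Lin28a (0.049). Those of Lin28a and Igf2bp3 also passed with library weights (0.041 and 0.048), and fits of the 2 wild-type groups alone passed Lin28a (0.040), Trim71 (0.040) and Igf2bp1 (-0.36, adjusted p = 0.028). These comparisons share libraries with those between genotypes, so the 2 sets are not separate evidence, and the contrast of the region effects is, with the sign turned, the contrast of the genotype effects given above.

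Apart from Hmga2, these region calls were fragile, and none of the other 6 passed with no filter on low values (adjusted p between 0.056 and 0.11). Without number 153 or number 156 in both regions, Hmga2 was the 1 gene of the 10 that passed in Gcnf-/- embryos, and Arid3a and Lin28b did not pass in wild-type embryos. In fits of the 2 Gcnf-/- groups alone the adjusted p was 0.082 for Lin28a, 0.12 for Trim71, 0.099 for Igf2bp3 and 0.13 for Arid3a. Library weights gave 0.073 for Igf2bp3 and 0.055 for Arid3a in Gcnf-/- embryos. In Gcnf-/- embryos Lin28a lost its call without Gcnf-/- anterior library 159 (adjusted p = 0.078) or posterior library 163 (0.058). Arid3a kept its call without Gcnf-/- posterior library 163 (0.014), and its adjusted p was between 0.053 and 0.16 without each of the other 7. Igf2bp3 kept its call without Gcnf-/- posterior library 159 (0.020), with adjusted p between 0.052 and 0.18 without each of the other 7. Trim71 lost its call without Gcnf-/- anterior libraries 159 (0.098) or 163 (0.12), Gcnf-/- posterior library 163 (0.089), or wild-type posterior libraries 153 or 156 (0.061 each), and under median-of-ratios scaling (0.055). In wild-type embryos Arid3a lost its call without any one of the wild-type libraries (0.12 and 0.17 without anterior libraries 153 and 156, 0.14 and 0.060 without posterior libraries 153 and 156). Lin28b lost its call without wild-type anterior libraries 153 (0.20) or 156 (0.13) or posterior library 156 (0.25), and also under median-of-ratios scaling (0.076), quantile normalization (0.090) and rescaling without globin, Mir6236 and mitochondrial transcripts (0.070).

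TPM divides by the exon-union length of a gene, 3996 bases for Lin28a and up to 9682 bases for Igf2bp1. The transcripts present may be shorter, so the order of levels between genes is approximate. On this scale Lin28a was first in each group and separate from the next gene. In Gcnf-/- anterior pieces Igf2bp2, Igf2bp1 and Hmga2 followed at 223, 206 and 194 TPM, and in wild-type anterior pieces Hmga2, Igf2bp1 and Igf2bp2 followed at 289.6, 288 and 243 TPM. In Gcnf-/- posterior pieces Hmga2 was second at 329 TPM, ahead of Igf2bp2 at 206 TPM and Igf2bp1 at 165 TPM, and in wild-type posterior pieces it was second at 326 TPM, ahead of Igf2bp1 at 224 TPM and Igf2bp2 at 219 TPM. The first 2 of those followers were not separated by their libraries in either anterior group, nor were Igf2bp1 and Igf2bp2 in wild-type posterior pieces. The 6 remaining genes ranged between 75.5 and 111 TPM in Gcnf-/- anterior and between 87.3 and 126 TPM in wild-type anterior pieces, and 3 of the 5 neighbouring pairs in that order overlapped in each.

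The genes whose pattern over the 8 libraries was most like that of Lin28a and Lin28b were found by the root mean square difference of log2(TPM + 1), centred on each gene's mean. The search covered 8701 tested genes averaging at least 10 TPM. The 10 genes themselves, predicted genes and sex-linked genes were left out of it. For Lin28a they were Kbtbd8, a substrate adaptor of a ubiquitin ligase (0.079), Ablim1, an actin-binding protein (0.11), and Lbhd1 (0.12). For Lin28b they were Ipo5, a nuclear import receptor (0.083), Lbhd1 (0.094) and Gart, an enzyme of purine synthesis (0.10). Kbtbd8 stood at 32.9 and 24.7 TPM in Gcnf-/- anterior libraries against 44.4 and 40.8 TPM in wild-type ones, and at 19.5 and 18.2 TPM in Gcnf-/- posterior libraries against 35.9 and 31.5 TPM in wild-type ones. Likeness over 8 libraries in 4 groups is a description and carries no test.

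Genes that make, transport or remove let-7 moved in both directions. Of 16 such genes, 2 rose and 3 fell in Gcnf-/- anterior pieces (median difference 0.05), and 2 rose and 1 fell in Gcnf-/- posterior pieces (median 0.02). Of all 16699 tested genes, 2229 rose and 1708 fell in anterior pieces (23.6% in either direction). In posterior pieces 1430 rose and 489 fell (11.5% in either direction). The list was not tested against these shares. Dgcr8, the RNA-binding partner of the nuclear processing enzyme Drosha, stood at 16.2 and 17.6 TPM in Gcnf-/- anterior libraries against 37.4 and 34.5 TPM in wild-type ones, and at 18.8 and 22.7 TPM in Gcnf-/- posterior libraries against 32.7 and 28.8 TPM in wild-type ones. Its mutant libraries lay below the wild-type libraries in both regions, and it fell in both (-1.04 ± 0.13, adjusted p = 0.00091, and -0.55 ± 0.13, adjusted p = 0.028). Tarbp2, a partner of Dicer (-0.70 ± 0.16, adjusted p = 0.014), and Xpo5, which exports microRNA precursors (-0.39 ± 0.11, adjusted p = 0.030), fell in anterior pieces. Ddx17, a helicase of the Drosha complex, rose in anterior (0.52 ± 0.089, adjusted p = 0.0046) and posterior pieces (0.41 ± 0.089, adjusted p = 0.023). Dis3l2, a nuclease that degrades uridylated let-7 precursors, rose in anterior pieces (0.38 ± 0.11, adjusted p = 0.040), and Tut4, the enzyme that uridylates let-7 precursors bound by Lin28a, rose in posterior pieces (0.38 ± 0.091, adjusted p = 0.033).

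Other messenger RNAs known as let-7 targets did not share one direction. Of 27 tested, 6 rose and 6 fell in Gcnf-/- anterior pieces (median difference 0.01), and 3 rose and 2 fell in Gcnf-/- posterior pieces (median -0.05). Of all 16699 tested genes, 2229 rose and 1708 (10.2%) fell in anterior pieces, and 1430 rose and 489 (2.93%) fell in posterior pieces. The list was not tested against these shares. Onecut2, a homeodomain factor, rose in anterior pieces to 12.2 and 13.4 TPM in Gcnf-/- libraries, against 1.75 TPM in both wild-type libraries (2.33 ± 0.16, adjusted p = 9.6e-05). Igdcc4, an immunoglobulin-family membrane protein, rose in anterior (1.55 ± 0.17, adjusted p = 0.00064) and posterior pieces (1.53 ± 0.17, adjusted p = 0.0014). Ccnd1, which encodes cyclin D1, fell in anterior (-1.01 ± 0.093, adjusted p = 0.00029) and posterior pieces (-0.39 ± 0.093, adjusted p = 0.031). The growth regulator Myc stood at 80.8 and 78.3 TPM in Gcnf-/- anterior libraries against 149 and 163 TPM in wild-type ones, and at 126 and 117 TPM in Gcnf-/- posterior libraries against 110 and 105 TPM in wild-type ones. It fell in front (-0.96 ± 0.091, adjusted p = 0.00033) and did not pass behind (0.18 ± 0.091, adjusted p = 0.24), and here the difference between regions passed (-1.14 ± 0.13, adjusted p = 0.0075). Its relative Mycn rose in both regions (0.43 ± 0.087, adjusted p = 0.0089, in front and 0.49 ± 0.087, adjusted p = 0.010, behind).

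**Figure D5:**
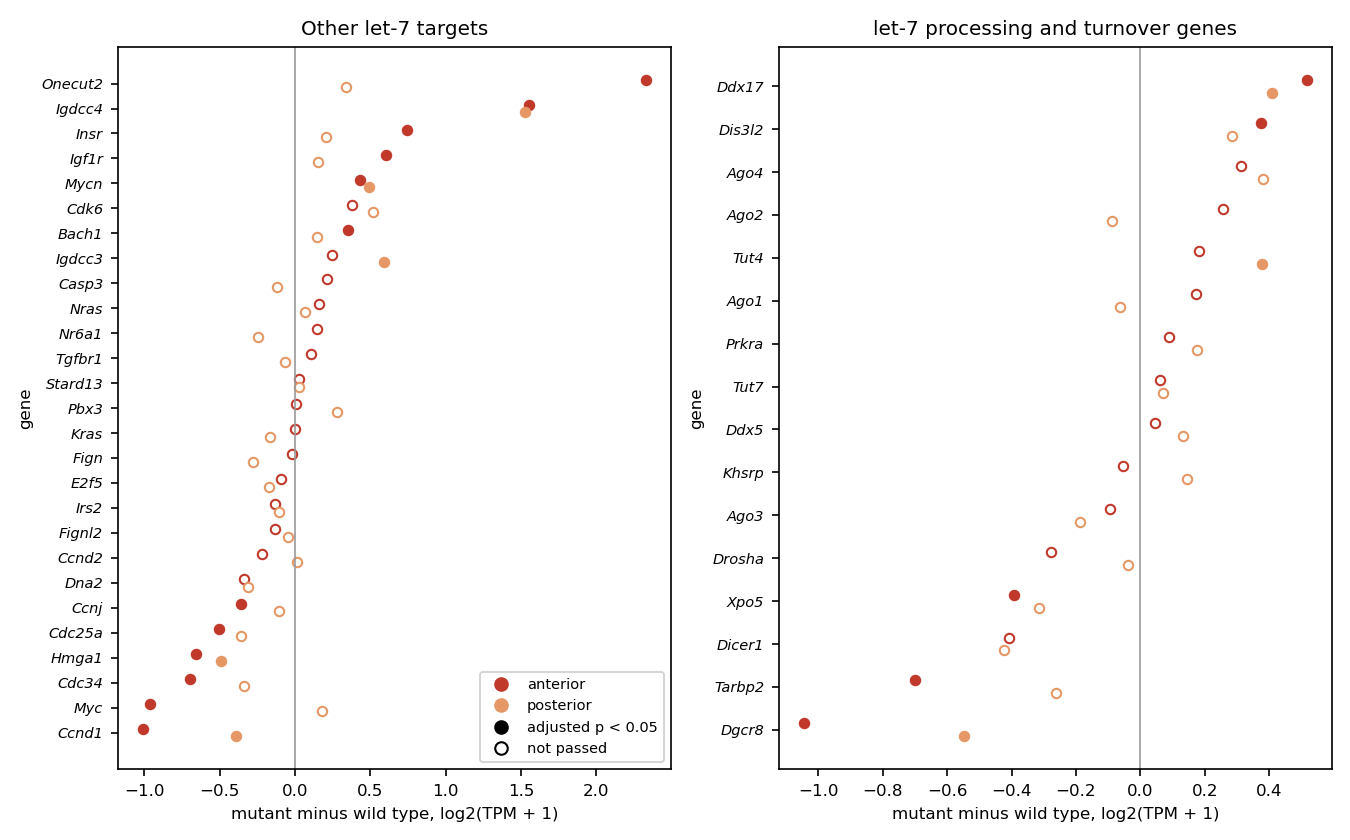
Mutant minus wild-type difference of log2(TPM + 1) for 27 other let-7 targets (left) and 16 genes of let-7 processing and turnover (right), in anterior (red) and posterior pieces (orange); filled points passed an adjusted p of 0.05. Points lie on both sides of 0 in both panels, with Onecut2 at 2.33 and Dgcr8 at -1.04 at the ends for anterior pieces.

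Paralogues outside the list did not share one direction. Plag1, a relative of Plagl2, did not pass in front (0.33 ± 0.16, adjusted p = 0.17) or behind (0.17 ± 0.16, adjusted p = 0.54). The levels of Arid3c are given further below. Plagl1, the imprinted relative of Plagl2, stood at 58.9 and 75.5 TPM in Gcnf-/- anterior libraries against 21.4 and 19.9 TPM in wild-type ones, and at 194 and 193 TPM in Gcnf-/- posterior libraries against 65.4 and 61.0 TPM in wild-type ones, and it rose in both regions (1.65 ± 0.12, adjusted p = 0.00012, and 1.60 ± 0.12, adjusted p = 0.00028). Hmga1, the relative of Hmga2, stood at 468 and 513 TPM in Gcnf-/- anterior libraries against 772 and 776 TPM in wild-type ones, and at 411 and 424 TPM in Gcnf-/- posterior libraries against 595 and 578 TPM in wild-type ones. It fell in anterior (-0.66 ± 0.090, adjusted p = 0.0017) and also in posterior pieces (-0.49 ± 0.090, adjusted p = 0.012), where Hmga2 did not pass. Plagl2 thus differed from Plagl1 in direction. Hmga2 fell in front as Hmga1 did and differed from it behind. These are readings of their own values, without a test of the difference.

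Markers of other tissues and some library traits differed along with these genes. The summed level of 8 erythroid markers was 25781 to 44265 TPM in Gcnf-/- anterior against 4277 to 10028 TPM in wild-type anterior pieces, and 22423 to 44462 TPM in Gcnf-/- posterior against 6406 to 7689 TPM in wild-type posterior pieces, with 6 of 8 markers rising in front and 5 of 8 behind. That of 8 early neuron markers was 432 to 602 TPM in Gcnf-/- anterior against 149 to 151 TPM in wild-type anterior pieces, and 107 to 115 TPM in Gcnf-/- posterior against 58.8 to 63.2 TPM in wild-type posterior pieces, with 8 of 8 rising in front and 6 of 8 behind. That of 8 visceral endoderm markers was 213 to 1011 TPM in Gcnf-/- posterior against 1985 to 2415 TPM in wild-type posterior pieces, with 3 of 8 falling. In anterior pieces it was 11.6 to 17.8 TPM in Gcnf-/- against 17.0 to 138 TPM in wild-type libraries, and 0 of 8 passed. Of 7 heart markers 0 passed in either region. Their sum was 142 to 437 against 43.2 to 170 TPM in front, and 458 to 3522 against 513 to 1555 TPM behind, for Gcnf-/- against wild type. Of all 16699 tested genes, 2229 rose in front, 1430 rose behind and 489 (2.93%) fell behind. Every marker of these lists was above 0 in at least 1 library of each group. Their part in the results was not tested, and in such pieces fewer cells of a type cannot be told apart from less RNA per cell. When TPM was rescaled without globin, Mir6236 and mitochondrial transcripts, an alternative chosen after seeing the data, Lin28a differed by -0.51 in front and -0.75 behind, Lin28b by -0.64 and -0.52, and Hmga2 by -0.53 in front, all past the threshold, while Trim71 behind (-0.58) was not (adjusted p = 0.053). Gcnf-/- posterior library 163 was also lower for long genes than library 159 (median -0.16 for genes over 8 kb, 0.16 for genes of 1 to 2 kb), and the 10 genes have exon lengths of 3996 to 9682 bases. After correction for that trend the posterior differences were -0.81 for Lin28a, -0.55 for Lin28b and -0.61 for Trim71, all past the threshold.

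The promoters of 7 of the 10 genes were in the RefSeq promoter table (GRCm38.p6, 250 bases before to 50 after a start, 8 promoters); Igf2bp1, Plagl2 and Arid3a were not used here. The letters TCAAGGTCA, the extended half-site that Gcnf is known to bind, and AGGTCA, the shorter half-site it contains, were searched on both strands. Neither was present in the 8 promoters, where 0.424% and 16.26% of all 32817 promoters of that length held them. That says only that these letters are not in these windows.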

How the data were processed

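Pieces were held in RNAlater, RNA was extracted with an RNeasy micro kit and unstranded poly-A libraries were made with a TruSeq kit, per the labels' protocols; per the submitters' processing notes, CASAVA 1.8.2, STAR and the mm10 build were used. The annotation and counter, not given in the sources used here, could move single levels. TPM values came as 1 table that the authors deposited. Multiplied by exon-union length (GENCODE M21), 98.8% to 98.89% of the values above 0 were whole reads within 0.01, giving 27064114 to 52957988 reads in genes per library and 3512 to 50860 for each of the 10 genes.

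Genes with at least 1 TPM in at least 2 libraries were fitted as log2(TPM + 1) with limma 3.58.1 (R 4.3.3), 4 group means, a mean-dependent spread, 4 residual and 4.68 prior degrees of freedom, two-sided tests and Benjamini-Hochberg adjustment over 16699 genes. Data were simulated for the anterior comparison with 16686 genes, 200 of them changed, all abundant, and 1 spread for every gene (SD 0.113). In these the fit found 54.8% of 1.5-fold and 98.8% of 2-fold changes, and 6.8% of its calls were false. Real spreads differ by gene and 23.6% of genes passed in the real anterior comparison, so these rates need not hold there. All 10 genes are named; of other lists, up to 4 genes with the smallest p in a contrast. Members and lists were chosen with earlier results of these data known. Alternatives covered pseudocount, filter, scaling, weights, samples and the replicate block.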

Additional observations from a re-analysis of the deposited data

How the results depend on the processing

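The 13 differences that passed gave 306 values over the alternative fits, which share libraries and are not separate checks. Of these values 0 changed sign, 205 still passed and 101 did not. Of 864 values of the differences that had not passed, 62 passed. Leaving out libraries, singly or a number in both regions, gave 0 to 6 of the 10 genes passing for the genotype effect in anterior and also in posterior pieces, 1 to 6 for the region effect in Gcnf-/- and 0 to 7 in wild-type embryos. With only the 2 groups compared, 6 passed in anterior, 1 in posterior, 1 for the Gcnf-/- region effect and 6 for the wild-type one. With no filter on low values 1 passed in posterior, 1 for the Gcnf-/- and 0 for the wild-type region effect, and with library weights 1, 3 and 5. The length-trend correction gave 1 for the difference of genotype effects (Hmga2) and 5 for the wild-type region effect, and rescaling without globin, Mir6236 and mitochondrial transcripts gave 1 for the wild-type region effect; both were chosen after seeing the data. The regions share library numbers, but the labels do not say that a number marks an embryo. Same-numbered libraries deviated together weakly over all genes (r = 0.14 for Gcnf-/-, 0.022 for wild type). Sex markers and globin went with the number: Xist was present in both 159 libraries. Globin took 4.43% and 4.45% of TPM in anterior and posterior libraries 159, and 2.59% and 2.25% in 163. In wild-type embryos it took 0.43% and 0.64% in 153, and 1.00% and 0.77% in 156. The main fit took all libraries as independent, so any pieces of the same embryo were not paired in it. With the number as a random replicate block 4 genes passed for the wild-type region effect; as a fixed block 5 passed for Gcnf-/-, with Lin28b in place of Arid3a, and 3 for wild type. The genotypes share no number, so no block applied to them.

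The sign of some differences that had not passed turned. Median-of-ratios scaling gave -0.047 for Hmga2 behind, and 0.043 for Igf2bp1 and 0.014 for Igf2bp2 in the difference of genotype effects. Quantile normalization gave 0.027 for Igf2bp2, 0.025 for Igf2bp3 and 0.067 for Arid3b in front, -0.016 for Hmga2 behind, and 0.11 for Igf2bp1 and 0.090 for Igf2bp2 in the difference. The length-trend correction gave -0.0097 for Hmga2 behind, and the rescaling gave 0.039 for Arid3b in front and 0.025 for Igf2bp1 in the difference. With libraries left out, the genotype effect in front ran between -0.19 and 0.0067 for Igf2bp3 and between -0.11 and 0.0996 for Arid3b; behind it ran between -0.089 and 0.12 for Hmga2 and between -0.20 and 0.036 for Igf2bp2. The Gcnf-/- region effect ran between -0.25 and 0.020 for Igf2bp2 and between -0.21 and 0.35 for Arid3b. The difference of genotype effects ran between -0.30 and 0.0084 for Lin28b, -0.036 and 0.53 for Trim71, -0.30 and 0.28 for Igf2bp1, -0.18 and 0.097 for Igf2bp2, -0.043 and 0.18 for Igf2bp3, -0.13 and 0.23 for Arid3a, and -0.14 and 0.19 for Plagl2. Over all genes the share of calls that were higher in Gcnf-/- posterior pieces was 74.5%, against 55.2% under median-of-ratios scaling and 53.9% under quantile normalization. The number of libraries, 2 a group, limits the precision, and no alternative varied depth. The cause of these shifts was not tested.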

Other observations

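Messenger RNAs that Igf2bp proteins are known to bind were followed as a further list of 6 genes. In anterior pieces 1 rose (Btrc, a ubiquitin ligase subunit, 0.41 ± 0.12, adjusted p = 0.041) and 1 fell (Myc, given above), and in posterior pieces limma passed 0, with 1 at an unadjusted p under 0.05. Of all tested genes 23.6% passed in either direction in anterior and 11.5% in posterior pieces. H19, the imprinted non-coding RNA, stood at 6782 and 7635 TPM in Gcnf-/- posterior and 2217 and 2459 TPM in Gcnf-/- anterior libraries, and at 6259 and 5541 TPM in wild-type posterior and 2443 and 1789 TPM in wild-type anterior libraries, and it was higher behind in Gcnf-/- (1.62 ± 0.16, adjusted p = 0.00025) and in wild-type embryos (1.49 ± 0.16, adjusted p = 0.00047). Igf2, which encodes a fetal growth factor, was also higher behind in Gcnf-/- (1.98 ± 0.24, adjusted p = 0.00064) and in wild-type embryos (1.53 ± 0.24, adjusted p = 0.0030). Arid3c, the least abundant Arid3 gene, stood at 0.74 and 0.38 TPM in Gcnf-/- anterior libraries against 2.71 and 2.06 TPM in wild-type ones. In posterior pieces it stood at 0.75 and 0.84 TPM in Gcnf-/- libraries against 4.63 and 2.53 TPM in wild-type ones. Every Gcnf-/- value was thus below the filter of 1 TPM. The gene entered the fit only through its wild-type libraries, so its levels are given without a test.

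The summed level of 9 pluripotency markers was 543 to 628 TPM in Gcnf-/- anterior against 448 to 458 TPM in wild-type anterior pieces, and 333 to 361 TPM in Gcnf-/- posterior against 282 to 285 TPM in wild-type posterior pieces. Of 7 tested, 2 rose in front and 3 rose and 1 fell behind. Of all 16699 tested genes, 2229 rose in front, and 1430 rose and 489 (2.93%) fell behind. In anterior pieces Sox2 made up most of the sum, at 314 and 354 TPM in Gcnf-/- and 327 and 328 TPM in wild-type libraries. Pou5f1, which encodes Oct4, stood at 94.4 and 127 TPM in Gcnf-/- anterior libraries against 1.94 and 1.81 TPM in wild-type ones. Behind it stood at 77.2 and 62.0 TPM in Gcnf-/- libraries against 3.95 and 4.18 TPM in wild-type ones. Pou5f1 rose in front (5.26 ± 0.16, adjusted p = 2.9e-06) and behind (3.79 ± 0.16, adjusted p = 1.5e-05). Nanog stood at 19.7 and 22.2 TPM in Gcnf-/- anterior libraries against 0.90 and 1.07 TPM in wild-type ones. Behind, Nanog stood at 5.05 and 3.68 TPM in Gcnf-/- libraries against 0.42 and 0.54 TPM in wild-type ones, which lay under the filter. Sox2 rose behind (0.38 ± 0.091, adjusted p = 0.031) and did not pass in front (0.03 ± 0.091, adjusted p = 0.87). Sall4, a zinc-finger factor of embryonic stem cells, fell behind (-0.42 ± 0.11, adjusted p = 0.038). Dppa5a was at 0 in both Gcnf-/- anterior libraries, but it was at most 0.67 TPM in any library and was not tested.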
